A study of Mus musculus with 10 samples.

Results

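The libraries compared here are 5 of epiblast stem cells (EpiSC) and 2 of epiblast-like cells (EpiLC), 7 of 10 RNA-sequencing libraries in a mouse series that also holds 2 libraries of embryonic stem cells (ESC) and 1 of mouse embryonic fibroblasts (MEF). They were chosen by cell type label alone, and no measured value entered the choice. The EpiSC libraries carried the labels haploid and p53-negative (2 libraries, here haploid p53-KO EpiSC 1 and 2), diploid and p53-negative (1 library), and diploid wild type (2 libraries, titled Epi_fema and Epi_male, here diploid wild-type EpiSC 1 and 2). The EpiLC libraries carried the labels haploid and p53-negative (1 library) and haploid wild type (1 library), and the ESC libraries haploid wild type and diploid wild type. Every library had the strain label 129SV. The sources used here give neither days in culture nor medium nor the number of independent lines. The p-values therefore reflect variation among these libraries, which may in part be technical, and each EpiLC genotype rests on 1 library.

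EpiSC are lines derived from the epiblast of the post-implantation embryo and are kept in activin and FGF, in which they self-renew. EpiLC are made from naive ESC by a short exposure to the same factors, pass through a formative state and are not kept as lines; they are known for their competence to form primordial germ cells, which EpiSC have largely lost. In the embryo, genes of the germline are silenced by DNA methylation and repressor complexes as the epiblast matures, and many of these genes are still transcribed in naive cells.

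The promoters of germline genes that fell in EpiSC are shown first, since such promoters carry CpG dinucleotides, the substrate of DNA methylation, and since the listed genes moved together. They belong to Mael and to the other 3 genes with the largest fall in the meiosis, piRNA and Dppa lists for which a promoter window was at hand. Each window runs from 250 bases before to 50 bases after the annotated transcript start, is read 5′ to 3′ on the gene's strand, comes from RefSeq (GRCm38.p6) and has its CpG dinucleotides in capitals. Mael lies on the minus strand with its window at chr1:166238695-166238994, Syce1 on the minus strand at chr7:140787805-140788104, Taf7l on the minus strand at chrX:134476441-134476740, and Fkbp6 on the minus strand at chr5:135349995-135350294. Fkbp6 has 2 windows in the table, of which the one shown was listed first.
Mael: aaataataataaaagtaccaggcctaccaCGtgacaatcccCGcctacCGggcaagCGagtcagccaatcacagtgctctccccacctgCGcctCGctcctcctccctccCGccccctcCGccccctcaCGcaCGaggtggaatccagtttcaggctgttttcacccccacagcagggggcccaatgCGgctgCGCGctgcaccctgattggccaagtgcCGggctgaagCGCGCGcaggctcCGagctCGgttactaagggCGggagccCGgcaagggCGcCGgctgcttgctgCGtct
Syce1: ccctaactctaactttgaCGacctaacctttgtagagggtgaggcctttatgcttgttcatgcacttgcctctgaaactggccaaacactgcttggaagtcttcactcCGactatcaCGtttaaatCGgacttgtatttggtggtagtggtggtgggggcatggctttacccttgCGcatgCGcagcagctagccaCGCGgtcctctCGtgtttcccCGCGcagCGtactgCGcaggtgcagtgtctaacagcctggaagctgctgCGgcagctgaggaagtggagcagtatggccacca
Taf7l: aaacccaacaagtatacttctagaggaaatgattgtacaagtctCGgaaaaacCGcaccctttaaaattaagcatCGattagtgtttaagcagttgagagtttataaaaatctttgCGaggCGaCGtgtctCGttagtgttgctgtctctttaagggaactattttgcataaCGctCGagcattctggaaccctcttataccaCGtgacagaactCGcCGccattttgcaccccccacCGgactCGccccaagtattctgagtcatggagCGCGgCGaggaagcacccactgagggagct
Fkbp6: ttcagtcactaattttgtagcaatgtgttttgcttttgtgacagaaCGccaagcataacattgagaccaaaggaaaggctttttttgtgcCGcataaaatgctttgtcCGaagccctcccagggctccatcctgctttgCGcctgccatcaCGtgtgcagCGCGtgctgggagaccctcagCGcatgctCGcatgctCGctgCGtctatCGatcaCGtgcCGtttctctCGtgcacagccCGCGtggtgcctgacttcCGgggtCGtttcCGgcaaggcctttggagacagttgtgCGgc
These windows held 24 CpG (Mael), 14 (Syce1), 17 (Taf7l) and 21 (Fkbp6), against a median of 7 over the 32544 distinct promoter windows of the table. In the same order, 79.9%, 63.5%, 68.4% and 75.0% of the distinct windows held fewer CpG, so none of the 4 numbers is extreme. The other Fkbp6 window, at chr5:135349864-135350163, overlaps it and held 32 CpG and 2 copies of CACGTG. The E-box CACGTG (a palindrome, so both strands are read at once) was found once in the Mael and Taf7l windows, 2 times in the Fkbp6 window and not in the Syce1 window; in the capitals used here it reads caCGtg. The E2F-type motif TTCCCGC, read on both strands, was in none of the 4. Of the 41 genes of the 3 lists that fell in EpiSC (edgeR quasi-likelihood test, Benjamini-Hochberg adjusted p below 0.05, a rule by which 5.88% of all genes tested fell), 31 had a window, and 13 of these 31 (41.9%) held CACGTG and 8 (25.8%) TTCCCGC. Over all 27025 genes with a window the shares were 8.09% and 5.29%. Among the 22 other members of these lists with a window, 5 held CACGTG and 2 held TTCCCGC. Promoters rich in CpG hold more motifs that contain CG, and the median CpG number was 17 for the fallen genes and 8 for all genes, so these shares are descriptions and show no binding.

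The libraries held 15862113 to 18814003 counts each. Trp53 RNA, the product of the gene named in the labels, was 50.1, 61.8 and 2.16 CPM in the EpiSC labelled haploid p53-KO 1, haploid p53-KO 2 and diploid p53-KO, 36.5 and 197 CPM in the diploid wild-type EpiSC 1 and 2, 32.9 CPM in the EpiLC labelled haploid p53-KO, 362 CPM in those labelled haploid wild type, 28.0 and 388 CPM in the haploid and diploid ESC and 130 CPM in MEF (CPM, counts per 1000000 of the normalised library). Both EpiSC libraries labelled haploid p53-KO thus lay above diploid wild-type EpiSC 1 and the haploid ESC, the EpiLC library labelled haploid p53-KO lay above the haploid ESC, and p53 names are used here as labels only. The Y-linked gene Ddx3y was at 116 CPM in the EpiSC labelled diploid p53-KO, 93.1 CPM in diploid wild-type EpiSC 2 and 46.9 CPM in the EpiLC labelled haploid wild-type, against 0.63 to 8.42 CPM in the other EpiSC and EpiLC libraries. The Y-linked genes did not all go together in the haploid wild-type EpiLC, with 740 counts for Eif2s3y, 410 for Uty and 12 for Kdm5d. Kdm5d had 887 and 851 counts in the diploid p53-KO EpiSC and diploid wild-type EpiSC 2. Rank correlations over the tested genes were 0.954 to 0.978 between EpiSC libraries, 0.942 between the 2 EpiLC libraries and 0.891 to 0.912 between an EpiSC and an EpiLC library, and every pair of libraries differed by more than sampling noise. Counts of ribosomal RNA genes took 0.000962% to 0.0152% of the EpiSC libraries and 0.0231% and 0.0455% of the EpiLC libraries. In bulk RNA, fewer cells of a type and less RNA per cell cannot be told apart.

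EpiSC differed from EpiLC in 2036 of 21104 genes tested, which is 9.65% by the same test. Of these, 796 genes were higher in EpiSC (3.77% of those tested) and 1240 were lower (5.88%). The falls were the deeper changes: the median log2 fold change was -3.33 over the genes that fell and 2.29 over those that rose, against 0.0069 over all genes tested, and 667 of the genes that fell averaged at most 1 CPM in EpiSC. In 128 called genes all 5 EpiSC libraries were at 0 counts, and in 25 both EpiLC libraries were. At an unadjusted p below 0.05 there were 5850 genes. DESeq2 called 3622 genes, 1859 higher and 1763 lower in EpiSC, of which 2001 were among the 2036, so that the balance of rises and falls differs between the tools. With the wild-type libraries only, 263 genes were higher and 213 lower. Leaving out the haploid p53-KO EpiLC library gave 554 calls, leaving out the haploid wild-type EpiLC library 1002, leaving out haploid p53-KO EpiSC 1 gave 1226, leaving out haploid p53-KO EpiSC 2 gave 1357 and leaving out diploid wild-type EpiSC 1 gave 1313. Where 1 EpiLC library is left, it is assumed to vary like the other groups. In 327 genes, 63 higher and 264 lower in EpiSC, the call was made in each of the 7 fits that left out 1 library. The mean ESC level lay nearer to EpiLC than to EpiSC on the log2 scale for 984 of the 1240 genes that fell (79.4%) and for 571 of the 796 that rose (71.7%). The share over all genes tested was not computed, so these shares are not particular to the called genes. Over the tested genes, rank correlations with ESC were 0.894 to 0.941 for EpiLC and 0.835 to 0.884 for EpiSC libraries.

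The 4 genes taken as markers of the contrast are given as a description. In 7012 of 21104 genes tested (33.2%) no EpiSC value overlapped an EpiLC value. Mael encodes a germ-granule protein of the piRNA pathway, which silences transposons in germ cells; its gene (ENSMUSG00000040629) spans chr1:166201201-166238747 on the minus strand in mm10. It had 1 count in all 5 EpiSC libraries together, a level of 0, 0, 0, 0.0541 and 0 CPM in the order haploid p53-KO 1, haploid p53-KO 2, diploid p53-KO, diploid wild-type 1 and diploid wild-type 2, against 70.9 CPM in the haploid p53-KO EpiLC and 26.4 CPM in the haploid wild-type EpiLC. The log2 ratio of summed normalised counts was -12.11, with an exact 95% counting interval of -17.42 to -9.63 that covers counting error only (edgeR adjusted p = 0.000155). Dppa4, a chromatin protein of the early embryo and pluripotent cells (chr16:48283733-48294237, plus strand), had 1.59, 0.115, 0.247, 0.758 and 0.168 CPM in the EpiSC libraries in the same order, against 129 and 145 CPM in the haploid p53-KO and haploid wild-type EpiLC, a log2 fold change of -7.84 ± 0.72 (SE, edgeR adjusted p = 0.000358). Eya4, a transcriptional coactivator of the placode network (chr10:23102963-23350786, minus strand), was at 2.69, 11.4, 14.6, 12.1 and 14.2 CPM in EpiSC and at 0.251 and 0.197 CPM in EpiLC (log2 fold change 5.57 ± 0.82, SE, edgeR adjusted p = 0.00468). Fibin, a secreted protein whose fish homologue acts in fin bud initiation (chr2:110360917-110363183, minus strand), was at 2.64, 10.3, 10.9, 4.06 and 5.20 CPM in EpiSC and had 0 counts in both EpiLC libraries, so that its log2 fold change is at least 5.10 with a floor of 3 counts per library (edgeR adjusted p = 0.00702). No EpiSC value overlapped an EpiLC value for any of the 4 genes, and all 4 calls were made in each of the 7 fits that left out 1 library. In MEF, Eya4 was at 40.4 CPM and Fibin at 133 CPM, above every EpiSC library, whereas Mael and Dppa4 were at 0 there; the part of fibroblast RNA in the 2 rises was not tested. Mael was at 70.8 and 13.7 CPM and Dppa4 at 47.8 and 105 CPM in the haploid and diploid ESC.

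**Figure D1:**
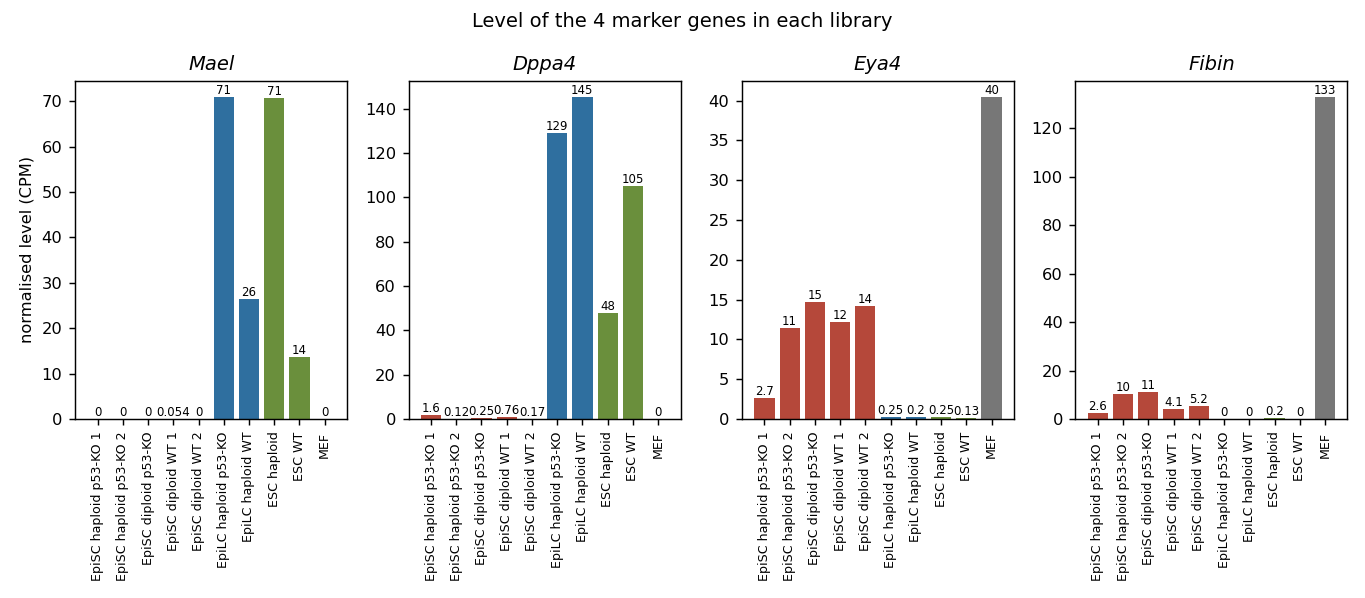
Normalised level (CPM, linear axis from 0) of Mael, Dppa4, Eya4 and Fibin in each of the 10 libraries, 1 bar per library. Mael and Dppa4 stand at 1.59 CPM or less in the 5 EpiSC libraries and at 26.4 CPM or more in both EpiLC libraries; Eya4 and Fibin stand at 2.64 CPM or more in EpiSC and at 0.251 CPM or less in EpiLC, and are highest in MEF.

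Genes of meiosis had the highest share of falls among the lists examined. Of 26 tested genes of meiosis and germ cell regulation 18 fell in EpiSC and none rose, beside 5.88% and 3.77% of all genes, and the median log2 fold change was -5.12. Syce1, a component of the synaptonemal complex, had 1 count in the 5 EpiSC libraries (0.0576 CPM in haploid p53-KO 2, 0 in the other 4) and stood at 27.3 and 18.8 CPM in the haploid p53-KO and haploid wild-type EpiLC, a log2 ratio of -11.03 with a counting interval of -16.33 to -8.54 (edgeR adjusted p = 8.36e-05). Taf7l, a germ cell variant of a general transcription factor subunit encoded on the X chromosome, had 3 counts in EpiSC, all in haploid p53-KO 1, and was at 71.9 and 10.6 CPM in EpiLC (log2 ratio -10.29, counting interval -12.57 to -8.74). Stk31, a germ cell protein with a tudor domain, and Slc25a31, the ADP/ATP carrier of germ cells, were at 0 to 0.162 CPM in EpiSC and at 9.78 to 53.7 CPM in EpiLC. The EpiLC libraries differed from each other for some of these genes. Stra8, the retinoic acid-induced gene of meiotic entry, was at 0.23 CPM or less in EpiSC, at 29.4 CPM in the haploid p53-KO EpiLC and at 0.263 CPM in the haploid wild-type EpiLC. The cohesin subunit Stag3 kept a low level in EpiSC, 2.46 to 5.03 CPM, against 95.3 and 59.8 CPM in EpiLC (-4.54 ± 0.39, SE, edgeR adjusted p = 0.00023). Dmc1 and Rec8, of meiotic recombination and cohesion, did not pass: Rec8 reached 11.3 CPM in the EpiSC labelled diploid p53-KO and 0.115 to 1.79 CPM in the other EpiSC and 16.5 and 15.9 CPM in EpiLC. Of the 18 genes that fell, 16 were called in each fit that left out 1 library, and without the 2 haploid p53-KO EpiSC libraries 15 genes of the list fell.

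The piRNA pathway fell with them, again beside 5.88% of all genes tested. Of 22 tested genes of the pathway and the germ granule 14 fell, none rose, and the median log2 fold change was -4.38; besides Mael these were led by Fkbp6, an immunophilin, Mov10l1, an RNA helicase, and Asz1, all of piRNA production. Fkbp6 had 3 counts in EpiSC, at 0.108 and 0.0559 CPM in the diploid wild-type libraries 1 and 2 and 0 in the other 3, and was at 55.8 and 15.9 CPM in EpiLC (log2 ratio -10.09, counting interval -12.37 to -8.54). Mov10l1 was at 0 to 0.162 CPM in EpiSC and at 36.5 and 13.1 CPM in EpiLC (-8.63 ± 0.96, SE, edgeR adjusted p = 0.00115). Asz1 rested on fewer counts, 72 and 10 in the haploid p53-KO and haploid wild-type EpiLC. In EpiSC it had 1 count, in diploid wild-type EpiSC 2, and its call was lost when that library was left out. All 3 tested PIWI genes, which encode the Argonaute-type proteins that bind piRNAs, fell: Piwil2 was at 0.433 to 0.803 CPM in EpiSC against 28.2 and 18.8 CPM in EpiLC (-5.20 ± 0.54, SE), Piwil4 fell by 3.76 and Piwil1 by 3.42 on the log2 scale. Not all tudor-domain genes of the pathway moved this way. Tdrd12 was at 0.92 to 2.36 CPM in EpiSC against 71.6 and 52.0 CPM in EpiLC (-5.13 ± 0.34, SE, edgeR adjusted p = 6.84e-05), whereas Tdrkh, which did not pass, was at 30.6 to 46.5 CPM in EpiSC and 9.49 and 8.47 CPM in EpiLC. Without the haploid p53-KO EpiLC library 8 genes of this list fell, and without the 2 haploid p53-KO EpiSC libraries 10.

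The Dppa family and maternal-effect genes act in oocytes and the early embryo. They gave 10 falls and no rise among 17 tested of 21 matched genes, with a median of -6.36, while 5.88% of all genes tested fell. Dppa5a, a KH-domain protein of pluripotent cells, was the most abundant: it was at 0.548, 1.5, 0.309, 1.41 and 0.28 CPM in the EpiSC libraries and at 690 and 800 CPM in the haploid p53-KO and haploid wild-type EpiLC (-9.83 ± 0.62, SE, edgeR adjusted p = 5.73e-05). Its EpiLC values lay between those of the haploid ESC, 418 CPM, and the diploid ESC, 1034 CPM. Dppa2, which binds DNA together with Dppa4, was at 0.112 to 3.14 CPM in EpiSC and at 133 and 138 CPM in EpiLC (-6.36 ± 0.69, SE). Nlrp4f and Nlrp14, members of an oocyte-rich family, had 3 counts and 1 count in EpiSC, against 64.2 and 6.89 CPM for Nlrp4f and 6.10 and 2.95 CPM for Nlrp14 in EpiLC. Oocyte genes such as Npm2 and Gdf9 stayed at or below 1.29 CPM in every EpiSC and EpiLC library and did not pass.

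Primordial germ cell genes fell in 7 of 16 cases, beside 5.88% of all genes tested, with no rise and a median of -1.72. Dazl, Ddx4 and Dppa3 were already counted in the lists above. Of the members found in no other list examined here, Rhox5 alone fell. Dazl and Ddx4, RNA-binding proteins of germ cells, were at 0.149 CPM or less and 0.741 CPM or less in EpiSC, against 8.99 and 11.9 CPM for Dazl and 29.7 and 23.6 CPM for Ddx4 in the haploid p53-KO and haploid wild-type EpiLC. Dppa3, a protein that guards maternal methylation, was at 0 to 0.185 CPM in EpiSC and at 17.6 and 2.43 CPM in EpiLC (-6.86 ± 0.91, SE, edgeR adjusted p = 0.00286). Rhox5, an X-linked homeobox gene, was at 0.727 to 6.48 CPM in EpiSC and at 369 and 225 CPM in EpiLC. The call was made in every fit that left out 1 library for these 4 genes, while the list counted 4 falls without the haploid p53-KO EpiLC library, without diploid wild-type EpiSC 1 and without the diploid p53-KO EpiSC. Of 18 tested 2-cell-like genes, which mark a rare totipotent-like state of ESC, 9 fell and none rose. The Zscan4 genes Zscan4b, Zscan4c, Zscan4d, Zscan4e and Zscan4f had 0 counts in every EpiSC library and 0.394 to 5.22 CPM in EpiLC, so that their log2 fold changes lie at or below bounds of -2.14 to -4.34. These genes are near-identical copies whose reads cannot be assigned with certainty, the list's median was -5.34 as fitted and -3.38 with bounds, and 1 to 5 genes of it fell in the fits that left out 1 library, with the 1 (Zscan4a) in the fit without the haploid p53-KO EpiLC.

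**Figure D2:**
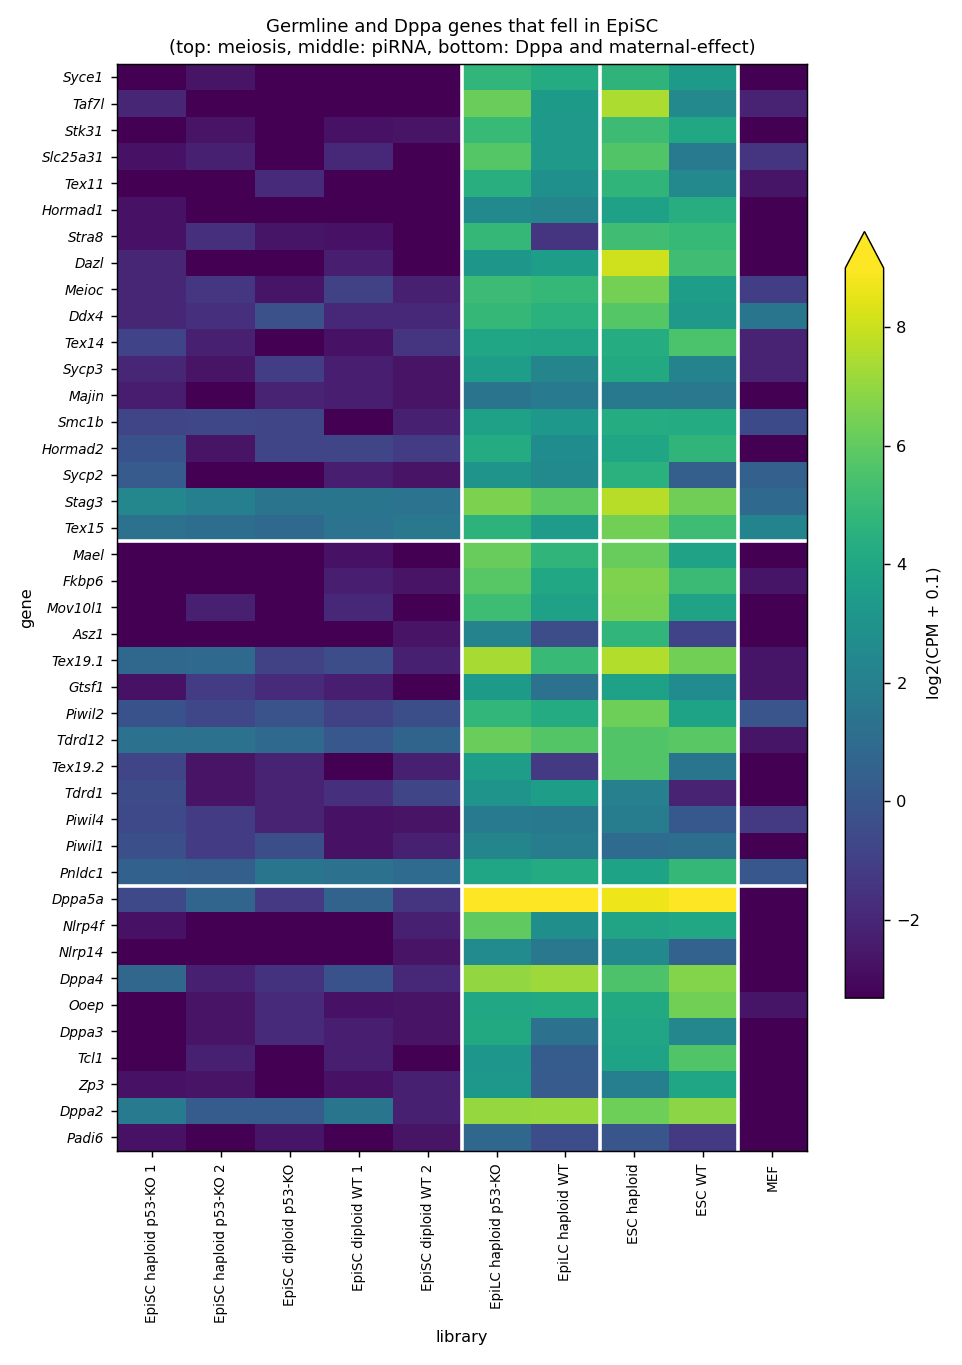
Heat map of log2(CPM + 0.1) in the 10 libraries for the 41 genes of the meiosis (top), piRNA (middle) and Dppa and maternal-effect (bottom) lists that fell in EpiSC, a gene of more than 1 list being drawn once. The 5 EpiSC columns at the left are dark for nearly all genes, while the 2 EpiLC and 2 ESC columns are bright, with Dppa5a at 690 and 800 CPM in EpiLC.

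Across all genes the 15 named ones with the largest fall were D1Pas1, Mael, Magea4, Usp26, Naa11, Tuba3b, Rhox1, Tex13b, Sohlh2, Syce1, Psma8, Rpl10l, Taf7l, Dppa5a and Terb2. Of these, 5 (Magea4, Usp26, Rhox1, Tex13b and Taf7l) lie on the X chromosome, which holds 856 of the 21104 genes tested. D1Pas1, a testis copy of an RNA helicase gene, had 0 counts in all 5 EpiSC libraries and stood at 29.1 and 18.7 CPM in EpiLC, so that its log2 fold change is -7.16 or lower. Rpl10l, a germ cell copy of a ribosomal protein gene, was at 0 CPM in 4 EpiSC libraries and 0.345 CPM in haploid p53-KO 2, against 108 and 57.0 CPM in EpiLC (-10.12 ± 0.79, SE, edgeR adjusted p = 0.000153). Both are retrocopies, so reads of their parent genes may be counted for them or the reverse. Sohlh2, a transcription factor of germ cell differentiation, had 2 counts in EpiSC and was at 56.3 and 21.5 CPM in EpiLC (log2 ratio -10.79, counting interval -13.83 to -8.93). The 15 genes were ranked by fitted fold change. For D1Pas1, Magea4, Naa11, Tuba3b, Rhox1 and Terb2, with 0 counts in every EpiSC library, only a bound exists, so their order is uncertain. All but Tuba3b and Rhox1 were called in every fit that left out 1 library. Rhox1 had 297 and 26 counts in the haploid p53-KO and haploid wild-type EpiLC.

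Naive pluripotency genes fell in part, beside 5.88% of all genes tested. Of 22 tested 10 fell, none rose, and the median log2 fold change was -2.98. Besides Dppa5a and Dppa3 these included Tdh, threonine dehydrogenase of mouse naive cells, at 0 to 1.52 CPM in EpiSC against 69.4 and 18.8 CPM in EpiLC (-6.18 ± 0.96, SE), and Tcl1, an AKT cofactor, at 0.115 CPM or less against 8.93 and 1.12 CPM. For 9 of the 10 genes the haploid p53-KO EpiLC stood above the haploid wild-type EpiLC: Esrrb, a nuclear receptor of the naive state, was at 0.727 to 10.8 CPM in EpiSC, 185 CPM in the haploid p53-KO EpiLC and 17.1 CPM in the haploid wild-type EpiLC, and Zfp42 at 0.379 to 2.42, 142 and 27.1 CPM. Without the haploid p53-KO EpiLC library 4 genes of the list fell, without the haploid wild-type EpiLC library 14, and without both haploid p53-KO EpiSC libraries 3. Klf4, a reprogramming factor, did not pass; it was at 1.98 to 11.7 CPM in EpiSC and 13.4 and 10.04 CPM in EpiLC.

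Of 18 tested genes of a general pluripotency list 6 fell and none rose, with a median of -0.75, while 5.88% of all genes tested fell. Among those that fell were Dppa4, Dppa2, Rex2, Etv5 and L1td1. Pou5f1, the core factor Oct4, did not pass at 431 to 670 CPM in EpiSC and 692 and 1164 CPM in EpiLC (-0.84 ± 0.34, SE, edgeR adjusted p = 0.143). Sox2 was at 111 to 233 CPM in EpiSC and 192 and 92.7 CPM in EpiLC, and Nanog at 20.6 to 76.1 CPM against 99.7 and 43.1 CPM; for both the ranges overlap. Without the haploid wild-type EpiLC library 3 genes of the list fell.

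Of 22 tested post-implantation epiblast genes none passed in edgeR, with 8 at an unadjusted p below 0.05 and 3 called by DESeq2, the median was -0.12 and 11 lay on each side of 0. The median turned with the EpiLC library left out, at -0.77 without the haploid p53-KO and 0.985 without the haploid wild-type EpiLC, and leaving out 1 library gave up to 2 rises (without the haploid wild-type EpiLC) or 1 fall (without diploid wild-type EpiSC 1). Fgf5, the classical marker of the post-implantation epiblast, was at 60.1, 28.0, 65.5, 47.0 and 34.5 CPM in the EpiSC libraries and at 39.2 and 113 CPM in EpiLC, whose values enclose 3 of the 5 EpiSC values. Otx2, the factor that drives exit from the naive state, was at 31.8 to 97.4 CPM in EpiSC and 97.9 and 137 CPM in EpiLC (-0.84 ± 0.37, SE, edgeR adjusted p = 0.172). The 2 members with the smallest p were Sox4, at 66.1 to 155 CPM in EpiSC against 24.8 and 58.6 CPM (edgeR adjusted p = 0.0541), and Lef1, at 13.5 to 57.5 against 63.8 and 158 CPM (edgeR adjusted p = 0.0592). Both cell types stood far above ESC for Fgf5, which was at 0.147 and 0.0643 CPM there.

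Among the DNA methylation genes 3 of 21 fell and none rose, with a median of -0.29, while 5.88% of all genes tested fell. Dnmt3l, the catalytically inactive cofactor of de novo methylation, was at 0.548, 0.864, 0.247, 0.433 and 0.224 CPM in the EpiSC libraries and at 526 and 117 CPM in the haploid p53-KO and haploid wild-type EpiLC (-9.41 ± 0.62, SE, edgeR adjusted p = 6.84e-05); this call was made in every fit that left out 1 library. Tet1, which oxidises methylcytosine, was at 47.6 to 184 CPM in EpiSC against 468 and 476 CPM (-1.68 ± 0.42, SE), and the remodeller Hells fell by 1.43 on the log2 scale. The methyltransferase Dnmt3b did not pass, at 408 to 1136 CPM in EpiSC and 647 and 3032 CPM in EpiLC, nor did the maintenance enzyme Dnmt1, at 329 to 433 CPM against 385 and 553 CPM. Of 17 tested germline gene repressors 4 fell by small amounts and none rose, with a median of -0.33: L3mbtl2 by 1.30, Pcgf6 by 1.20, Mga by 1.08 and Wdr5 by 0.85 on the log2 scale. The first 3 are known as subunits of the variant Polycomb complex that represses germline genes in ESC. Pcgf6 was at 48.3, 58.3, 61.1, 52.1 and 58.8 CPM in EpiSC and at 122 and 134 CPM in EpiLC. In the Polycomb repressive complex 2, 3 of 13 genes fell and none rose: the accessory subunits Epop by 1.30, Jarid2 by 1.06 and Mtf2 by 1.03. Of these 10 falls, Dnmt3l and Pcgf6 alone were called in every fit that left out 1 library. Without the haploid p53-KO EpiLC the 3 lists had 2, 1 and 1 falls, and without the haploid wild-type EpiLC 1, 2 and 1.

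**Figure D3:**
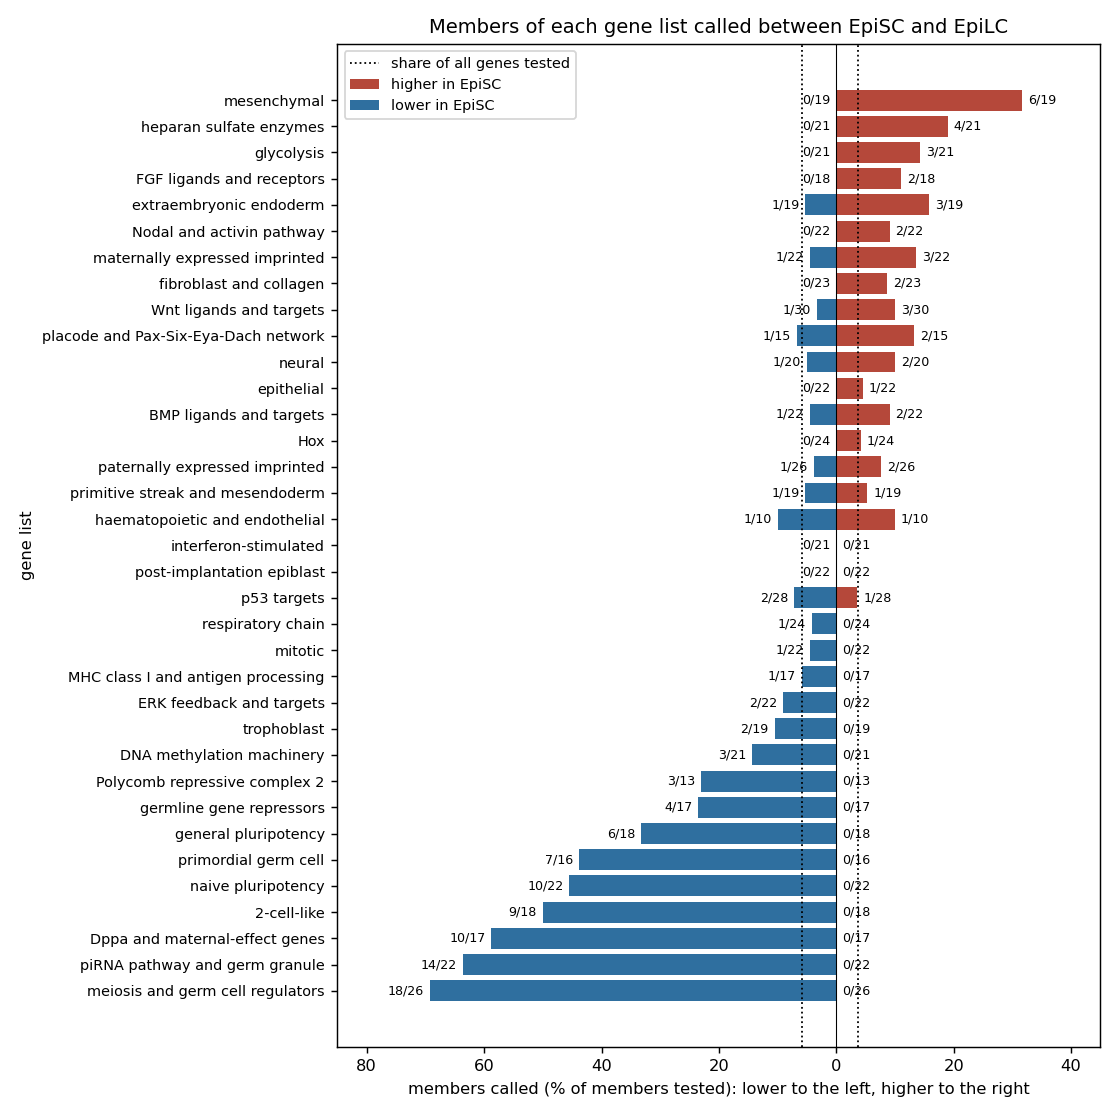
Members of each of 35 gene lists called between EpiSC and EpiLC, as percent of the members tested, with counts beside the bars; bars to the right are higher and bars to the left lower in EpiSC. The dotted lines mark the share of all tested genes, 3.77% higher and 5.88% lower. The meiosis (18 of 26), piRNA (14 of 22) and Dppa (10 of 17) lists reach farthest to the left, and the mesenchymal list (6 of 19) farthest to the right.

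Genes higher in EpiSC spanned receptors, transporters and structural proteins, and several were also high in fibroblasts. The 15 named genes with the largest rise were Fibin, Dynap, Penk, Klhl4, Acta1, Slc39a8, Ltb, Eya4, Calcr, Cd248, Itgb8, Sytl2, Synpo2l, Zfhx4 and Klhl30. Calcr, the calcitonin receptor, was at 73.8, 86.3, 50.6, 66.1 and 46.0 CPM in the EpiSC libraries and at 1.51 and 1.25 CPM in EpiLC (5.54 ± 0.42, SE, edgeR adjusted p = 0.000142), and stood at 0.0643 CPM in MEF and 0.246 and 0.129 CPM in ESC. Slc39a8, a zinc importer, was at 74.1, 80.2, 199, 55.3 and 261 CPM in EpiSC and at 2.01 and 1.58 CPM in EpiLC (6.22 ± 0.94, SE, edgeR adjusted p = 0.00523), with 12.5 CPM in MEF. Penk, the enkephalin precursor, ranged from 14.2 to 198 CPM in EpiSC against 0.44 and 0.459 CPM in EpiLC. Klhl4, an X-linked kelch protein, was at 54.5 to 88.0 CPM in the 3 EpiSC labelled p53-KO, 5.47 and 12.1 CPM in the diploid wild-type EpiSC and 0.692 and 0 CPM in EpiLC. Ltb, lymphotoxin beta, was at 4.34 to 47.5 CPM in EpiSC and at 0.44 and 0.394 CPM in EpiLC. For Calcr, Slc39a8, Klhl4 and Ltb the MEF level lay below every EpiSC library. Cd248, a stromal cell surface protein, was at 5.54 to 19.7 CPM in EpiSC against 0.566 and 0 CPM in EpiLC, and at 355 CPM in MEF; Zfhx4, a homeodomain factor, was at 27.9 to 48.7 CPM against 1.13 and 0.919 CPM, and at 252 CPM in MEF. Calcr, Eya4, Fibin and Itgb8 passed in every fit that left out 1 library. Penk, Klhl4 and Ltb did not pass without either of the EpiLC libraries, Slc39a8 and Zfhx4 not without the haploid p53-KO EpiLC, and Cd248 not without the haploid wild-type EpiLC.

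**Figure D4:**
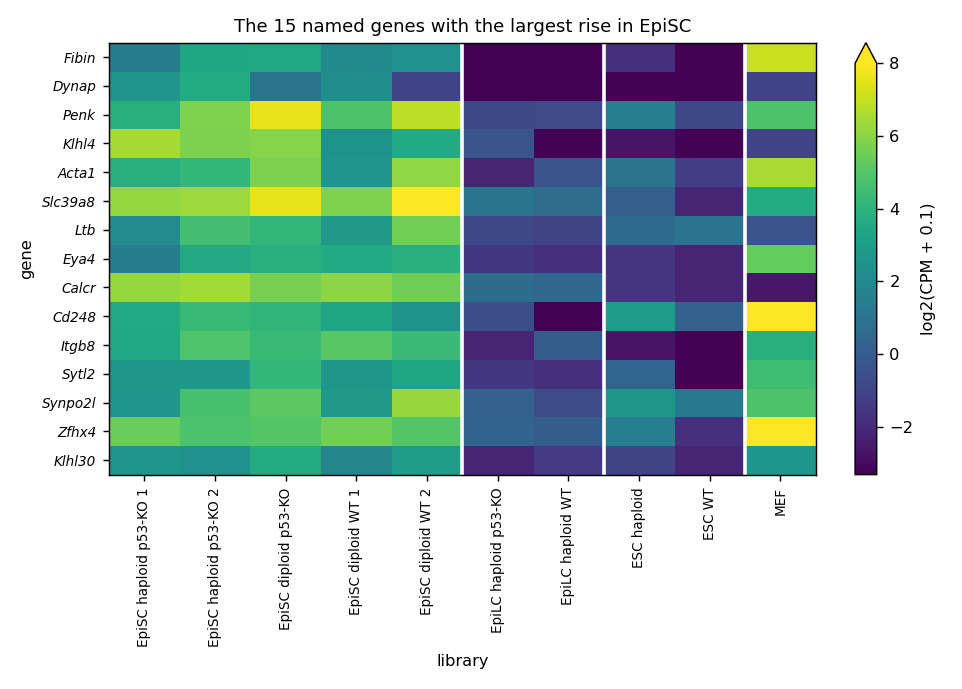
Heat map of log2(CPM + 0.1) in the 10 libraries for the 15 named genes with the largest rise in EpiSC. The 5 EpiSC columns are brighter than the 2 EpiLC columns for every gene; in the MEF column Fibin, Acta1, Cd248 and Zfhx4 are bright and Calcr, at 0.0643 CPM, is dark.

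Mesenchymal genes rose in 6 of 19 cases and none fell, with a median log2 fold change of 2.89 and all 19 fitted values above 0. Vim, the intermediate filament of mesenchymal cells, was at 788, 1410, 565, 662 and 288 CPM in haploid p53-KO 1 and 2, diploid p53-KO and diploid wild-type EpiSC 1 and 2, against 104 and 80.0 CPM in EpiLC (3.01 ± 0.57, SE, edgeR adjusted p = 0.0126). Cdh2, N-cadherin, was at 11.6 to 115 CPM in EpiSC against 8.74 and 13.3 CPM, with overlapping ranges. Fn1 and Sparc, of the matrix, rose by 1.72 and 2.29 on the log2 scale. In the fit without the haploid wild-type EpiLC library no mesenchymal gene passed, leaving out any other library except diploid wild-type EpiSC 2 gave 2 or 3, and without the 2 haploid p53-KO EpiSC libraries 1 did. Of the 19 mesenchymal genes 9 rose with the 7 EpiSC and EpiLC libraries alone, 12 in DESeq2 and 14 without a low-count filter. Of 23 tested fibroblast and collagen genes 2 rose, Pdgfrb and Col5a1 (3.77% of all genes tested rose), none fell, and all 23 fitted values lay above 0, with a median of 3.53. This count depended on the setting: 11 of the 23 rose with the 7 EpiSC and EpiLC libraries alone and in DESeq2, and 20 without a low-count filter, while 1 rose when either EpiLC library was left out. The median was 5.9 without the haploid p53-KO and 2.79 without the haploid wild-type EpiLC. Their summed level was 1270 to 3870 CPM in EpiSC, 299 and 75.4 CPM in the haploid p53-KO and haploid wild-type EpiLC and 96000 CPM in MEF. This is 1.32% to 4.03% of the MEF sum in EpiSC and 0.311% and 0.0786% in EpiLC. The haploid ESC, at 2020 CPM or 2.11% of the MEF sum, lay inside the EpiSC range. The diploid ESC was at 60.3 CPM or 0.0628%. Col1a1, type I collagen, did not pass at 163 to 585 CPM in EpiSC against 30.4 and 1.97 CPM, with 24761 CPM in MEF. All 23 markers had counts in each of the 5 EpiSC libraries, while Col3a1, Postn and Fap had 0 counts in the haploid wild-type EpiLC. Of the 796 genes that rose, 456 (57.3%) had a MEF level above every EpiSC library and 188 (23.6%) below every EpiSC library, against 31.0% and 30.1% of all genes tested. The part of fibroblast RNA in the rises was not tested.

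Signalling genes gave few calls, in both directions, where 3.77% of all genes tested rose and 5.88% fell. With so few calls per list, the counts describe single genes. Among 18 FGF ligands and receptors 2 rose and none fell. Fgf17, a ligand of the primitive streak, was at 10.3, 41.6, 24.5, 44.9 and 12.6 CPM in the EpiSC libraries and at 1.26 and 3.08 CPM in EpiLC, and the receptor Fgfr1 was at 275 to 322 CPM against 98.7 and 189 CPM. The ERK-induced factor Etv5 and the ERK phosphatase Dusp6 were the 2 of 22 ERK feedback genes that fell, by 1.38 and 1.05 on the log2 scale, and none rose. In the Nodal and activin pathway 2 of 22 rose and none fell: Smad3, the signal transducer, was at 59.4 to 69.4 CPM in EpiSC against 22.9 and 27.1 CPM in EpiLC (1.36 ± 0.20, SE, edgeR adjusted p = 0.00472), and the proprotein convertase Furin rose by 1.82. Of 22 BMP genes Bmpr2, a receptor, and Id3, a target, rose by 0.92 and 1.95, and Smad9, a transducer, fell by 2.58 at a level of at most 0.349 CPM in EpiSC and 1.13 and 1.05 CPM in EpiLC. Of 30 Wnt genes the ligand Wnt10b and the inhibitors Rnf43 and Sfrp1 rose, and the inhibitor Nkd2 fell by 1.89; Sfrp1 was at 49.7 to 89.1 CPM in EpiSC and 13.5 and 14.2 CPM in EpiLC. Of these 13 calls Smad3 alone was made in every fit that left out 1 library.

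Lineage genes were also affected singly, where 3.77% of all genes tested rose and 5.88% fell. Of 22 epithelial genes 1 rose and none fell: Krt19, a keratin of simple epithelia, was at 160, 134, 95.1, 59.9 and 117 CPM in the EpiSC libraries and at 4.97 and 1.77 CPM in EpiLC (5.07 ± 0.98, SE, edgeR adjusted p = 0.0143). Of 20 neural genes Nes and Ncam1 rose and En2 fell; Nes, an intermediate filament of neural progenitors, was at 272 to 589 CPM in EpiSC and 29.8 and 90.2 CPM in EpiLC. In the placode network of 15 genes Eya4 and Dach2 rose and Six4, another member of the network, fell by 1.61. Of 19 extraembryonic endoderm genes the basement membrane collagens Col4a1 and Col4a2 rose together with Sparc, while Gata4, a defining endoderm factor, was at 0.124 to 0.336 CPM in EpiSC against 3.90 and 1.12 CPM in EpiLC. Col4a1 was at 198 to 427 CPM in EpiSC, 21.7 and 43.5 CPM in EpiLC and 1690 CPM in MEF. Of 19 streak genes Fgf17 rose and Mesp2 fell, and of 19 trophoblast genes the X-linked Rhox6 and Rhox9 fell and none rose. Of 24 Hox genes 1 rose, Hoxb5, at 0.336 to 1.84 CPM in EpiSC and 0.0629 and 0 CPM in EpiLC, although 23 of the 24 fitted values lay above 0, with a median of 2.97. Of 10 haematopoietic and endothelial genes Csf1r rose and Pecam1, also of the naive list, fell. Eya4 was the only one of the calls of these lists made in every fit that left out 1 library.

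Heparan sulfate enzymes build and sulfate the sugar chains that FGF and Wnt ligands bind. They rose in 4 of 21 cases and none fell, with a median of 0.63. Among all genes tested 3.77% rose and 5.88% fell. Ext1, of chain polymerisation, was at 88.5, 87.9, 83.6, 93.3 and 91.9 CPM in the EpiSC libraries and at 35.5 and 48.6 CPM in EpiLC (1.08 ± 0.20, SE, edgeR adjusted p = 0.0117). The sulfotransferases Hs2st1 and Ndst2 rose by 0.81 and 1.13, and Hs3st3a1, at 0.28 to 3.80 CPM in EpiSC and 0 counts in both EpiLC libraries, rose by at least 3.14. Hs3st3b1 did not pass, at 0.336 to 9.15 CPM in EpiSC against 2.26 and 0.788 CPM. Each of 4 libraries left out (haploid p53-KO EpiSC 1, diploid p53-KO EpiSC and either EpiLC) brought this list to 1 call, and haploid p53-KO EpiSC 2 or diploid wild-type EpiSC 1 left out brought it to 2. Of 21 glycolysis genes the glucose transporter Slc2a1, the regulator Pfkfb3 and the enolase Eno3 rose and none fell; Slc2a1 was at 424 to 1610 CPM in EpiSC and 243 and 182 CPM in EpiLC. None of these 3 passed when either EpiLC library was left out, and the list had 1 rise without the haploid p53-KO EpiLC and 0 without the haploid wild-type EpiLC. Of 24 respiratory chain genes 1 fell, Cox7b, and none rose.

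Few imprinted genes passed the test. Of 26 paternally expressed genes Nnat and Airn rose and Nap1l5 fell; Nnat, a small membrane protein of the developing brain, was at 92.0 to 337 CPM in EpiSC and 17.0 and 26.7 CPM in EpiLC. Of 22 maternally expressed genes Calcr, Slc22a3 and Gnas rose and Cobl fell. Over all genes tested 3.77% rose and 5.88% fell. No paternally expressed gene passed when either EpiLC library was left out, Calcr alone passed of the maternally expressed ones without the haploid p53-KO EpiLC, and no other imprinted gene named passed in every fit that left out 1 library. Airn is antisense to Igf2r and Gnas is a nest of overlapping transcripts, and the sources used here do not say whether counting used the strand. Of 28 p53 targets Perp, of cell adhesion, rose, and Tigar and Xpc fell, a share near that of all genes. Cdkn1a, the cell cycle inhibitor induced by p53, did not pass at 4.32 to 160 CPM in EpiSC and 12.01 and 118 CPM in EpiLC. None of 21 interferon-stimulated genes passed in edgeR, with 0 at an unadjusted p below 0.05 and 0 called by DESeq2. The libraries of each cell type differed widely for this list. Its summed level was 188 to 1770 CPM in EpiSC and 1550 and 323 CPM in the haploid p53-KO and haploid wild-type EpiLC. The median log2 fold change was 0.095, but 3.62 without the haploid p53-KO EpiLC and -0.606 without both haploid p53-KO EpiSC. Of 17 antigen-processing genes Psmb10 fell, and of 22 mitotic genes Ccnb1 fell.

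The contrast was also read in pairs of groups with the same p53 label, which share no library. The haploid p53-KO EpiSC differed from the haploid p53-KO EpiLC in 689 of 20583 genes (3.35%), and the diploid wild-type EpiSC from the haploid wild-type EpiLC in 476 (2.31%), by the edgeR test with the spread pooled over the 9 pluripotent libraries. Each comparison holds 1 EpiLC library, which is assumed to vary like the other groups: the spread comes from the 2 EpiSC groups that have 2 libraries, with 2 residual degrees of freedom, so the p-values carry no spread between EpiLC libraries of a label. Both comparisons called 276 genes, 40.1% of the first list and 58% of the second, all in the same direction, 155 lower and 121 higher in EpiSC. The 2 fold changes had the same sign in 69.9% of the 20583 genes, a description over genes, which are not replicates. Of the 88 list members that fell in EpiSC in the contrast of all 7 libraries, all 88 were lower in both comparisons, 51 called in the first, 35 in the second and 32 in both. Of the 40 that rose, all 40 were higher in both, with 15, 11 and 8 calls. These values come from the libraries of the contrast that chose the 128 genes, so the shared sign is a description. Mael fell by 13.27 on the log2 scale in the haploid p53-KO comparison (edgeR adjusted p = 0.00377) and by 9.54 in the wild-type comparison (edgeR adjusted p = 0.00737), and the log2 fold changes of Dppa5a were -9.41 and -9.83. Calcr rose by 5.73 and 5.53. Eya4 had fold changes of 4.77 and 6.05 and passed in neither (edgeR adjusted p = 0.0851 and 0.063). In a test of the difference between both comparisons edgeR called 0 genes, with 1050 at an unadjusted p below 0.05, while DESeq2 called 125; the wild-type comparison also differs in ploidy between its groups.

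**Figure D5:**
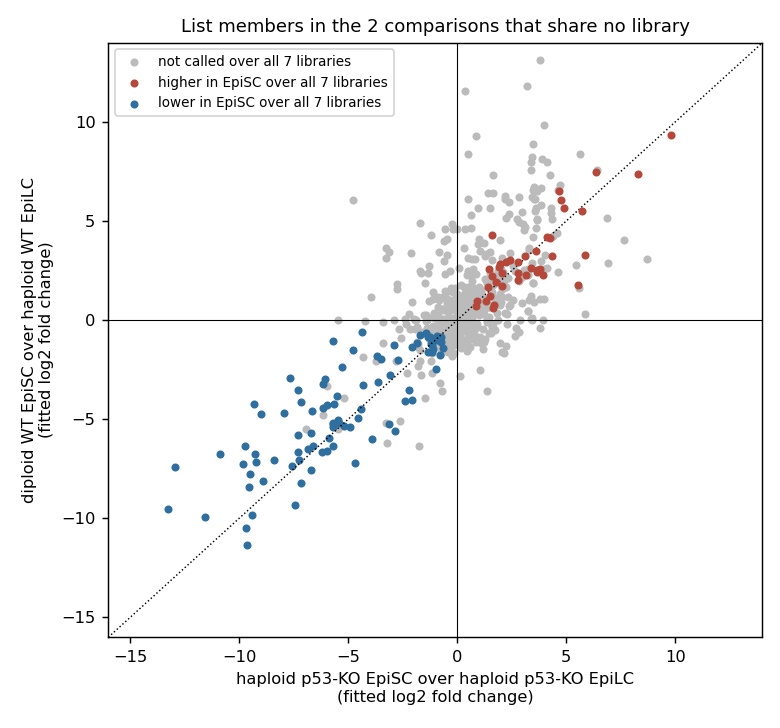
Fitted log2 fold change of the tested list members in the haploid p53-KO comparison (horizontal axis, EpiSC over EpiLC) and in the wild-type comparison (vertical axis, EpiSC over EpiLC), coloured by the call in the contrast of all 7 libraries. The 88 genes that fell lie in the lower left quadrant, with Mael at -13.27 and -9.54, and the 40 that rose in the upper right.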

How the data were processed

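Poly(A) RNA-seq libraries of mouse cells were analysed from the deposited count table. Per the submitters' processing notes, reads were handled with HISAT2 2.0.5 and featureCounts 1.5.0-p3 on mm10; the strand setting is not stated. The authors deposited raw counts per gene and, in the same table, FPKM values, which equal counts divided by gene length and 1 constant per library. The study's design text speaks of triplicates, and 10 libraries were used here.

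Genes were filtered with filterByExpr by cell type, normalised by TMM and tested with edgeR 4.0.16 in R 4.3.3 (quasi-likelihood F test, 1 mean per cell type over the 10 libraries, contrast EpiSC minus EpiLC, Benjamini-Hochberg adjusted p below 0.05). SE is the absolute log2 fold change over the root of F. CPM are counts per 1000000 of the TMM-scaled library. Where a group had 0 counts the fold change is a bound against a floor of 3 counts per library, and with 1 to 3 counts a ratio with an exact 95% counting interval; both cover counting error only, since reads carry no molecular identifiers. Total counts per library bound the precision for low genes, as 3 counts are 0.147 to 0.197 CPM.

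The genes named are the markers and sex genes, the 15 protein-coding genes with the largest change in each direction (at least 5 CPM, no overlap), up to 4 called genes per list or the 2 with the smallest p, and 9 fixed genes; 1 gene that this rule names is not reported here. Genes named beyond this rule, namely Stra8, Stag3, Rec8, Dmc1, Tdrkh, Tdrd12, the Piwil genes, Esrrb, Zfp42, L1td1, Dnmt1, Dnmt3b, Zscan4b, Fn1, Col1a1, Col3a1, Postn, Fap, Npm2 and Gdf9, were chosen after their values were seen. The members and the 37 gene lists were chosen with earlier results of these data known. The alternatives were other libraries in the fit, other size factors, no filter, DESeq2 1.42.0, limma 3.58.1 on log2(FPKM + 1) and log2(FPKM + 0.1), covariates for p53 label and ploidy, same-label libraries and leaving out each library. The scripts were tested on simulated data. Replicate numbers do not pair EpiSC with EpiLC.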

Additional observations from a re-analysis of the deposited data

Results flagged for a closer look

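In 10 of the 106 named genes that reached 1 CPM in an EpiSC library, 1 EpiSC library lay apart from the other 4, its gap to the nearest being over 0.71 of the range of the 5 libraries; chance alone gives this in about 1 in 20 groups. In the diploid p53-KO EpiSC, Pecam1 was high at 4.39 CPM, Rec8 high at 11.3 CPM, Wnt10b high at 8.15 CPM and Tigar low at 23.2 CPM. In haploid p53-KO EpiSC 2, Nnat was high at 337 CPM, while Mga and Tet1 were low at 130 and 47.6 CPM. In diploid wild-type EpiSC 2, Slc22a3 was high at 30.8 CPM and Id3 low at 6.32 CPM. In haploid p53-KO EpiSC 1, Eya4 was low at 2.69 CPM.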

How the results depend on the processing

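Against 2036 calls (796 higher and 1240 lower in EpiSC, 128 of them on the lists), DESeq2 gave 3622 calls (1859 higher, 1763 lower; 208 on the lists), no low-count filter 3162 (1495 higher; 238 on the lists), the 7 EpiSC and EpiLC libraries alone 1224 higher, and covariates for p53 label and ploidy 1279 (692 lower). With the haploid p53-KO libraries only there were 689 calls (289 higher, 400 lower, 85 on the lists) and with the wild-type libraries only 476 (263 higher, 213 lower, 73 on the lists). Leaving out 1 library at a time gave 554 to 1555 calls, 173 to 640 higher, 381 to 915 lower and 52 to 110 on the lists. Leaving out both haploid p53-KO EpiSC, an alternative chosen after seeing the data because of their Trp53 level, gave 418 calls (125 higher, 293 lower, 47 on the lists). The difference between the same-label comparisons had 0 calls in edgeR, 271 without the filter and 125 in DESeq2; the cause was not tested. All calls shared with the main analysis kept their direction. The sign turned only in genes that did not pass. Leaving out 1 library at a time moved the log2 fold change of Cdkn1a between -0.49 and 2.78, of Ddx3y between -0.0063 and 6.17, of Dnmt3b between -1.93 and 0.27, of Fgf5 between -1.23 and 0.27, of Nanog between -1.07 and 0.16, of Sox2 between -0.29 and 0.78 and of Trp53 between -2.39 and 1.09. With the haploid p53-KO libraries only, Fgf5 was at 0.18, Sox2 at -0.51 and Trp53 at 0.77, and with the wild-type libraries only Gdf9 was at -0.46 and Nanog at 0.25. With covariates Sox2 was at -0.11 and Trp53 at 0.0042. No paired analysis was possible because each EpiLC group has 1 library and replicate numbers only name libraries within a group. With 2 EpiLC libraries and 3 counts worth 0.147 to 0.197 CPM, fold changes of genes near that level rest on few counts.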

Other observations

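The genes below were picked after their values were seen and carry no test of their own. Some of the falls in EpiSC, which were 5.88% of all genes tested, lay close together. Of 2294 bins of 1 Mb (mm10), 5 held at least 10 falls each, with 78 of the 1240 falls (6.29%) among their 153 tested genes, and 1 other bin, on chromosome 18 from 37 Mb, held 15 rises and 3 falls among 56 tested genes. On chromosome 13, 15 of 26 tested genes fell in the bin from 65 Mb and 23 of 32 in the bin from 66 Mb, among them Zfp640 and Nlrp4f, and on chromosome 4, 12 of 21 and 15 of 37 fell in the bins from 146 and 147 Mb, where Rex2, Zfp600 and Zfp534 lie. The chromosome 4 falls were mainly of zinc finger genes and of pseudogenes and non-coding RNAs between them. Most of the chromosome 13 falls were of lincRNA or pseudogene biotype, Zfp640 included, and Nlrp4f belongs to the Nlrp family. Several rested on few counts, such as Gm48171 and Platr2 with 18 and 15 in EpiLC and 0 in EpiSC. The assignment of reads among similar copies in these bins is uncertain. On X the bin from 73 Mb held 13 falls among 37 genes. Of these, 8 are the Xlr falls given next, so both observations describe the same locus.

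The Xlr genes, X-linked and related to a synaptonemal complex protein, fell in 8 of 9 cases and none rose; their summed level was 2.68 to 31.4 CPM in EpiSC and 223 and 253 CPM in the haploid p53-KO and haploid wild-type EpiLC. Of 20 tested genes of the Rhox homeobox cluster 7 fell and none rose, with sums of 0.727 to 8.37 CPM in EpiSC and 498 and 234 CPM in EpiLC. Over the X chromosome 95 of 856 tested genes fell (11.1%) and 24 rose (2.8%), against 5.88% and 3.77% of all genes tested.

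The clustered protocadherins, adhesion proteins of neurons that share exons, rose in 14 of 49 tested cases and 1 fell, where 3.77% of all genes tested rose and 5.88% fell. Their summed level was 75.5 to 133 CPM in EpiSC, 27.0 and 24.0 CPM in EpiLC and 347 CPM in MEF. Of 54 semaphorins, plexins and ephrins, guidance molecules of axons and tissues, 8 rose and 1 fell.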
